A study of Mus musculus with 9 samples.

Results

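The AP-1 and stress immediate early genes described here were the 9 genes Fos, Fosb, Jun, Junb, Jund, Atf3, Ier2, Btg2 and Zfp36, taken by name from the 22178 gene symbols of a mouse B cell RNA-seq table. All 9 were in the table and all 9 passed the filter on low values. The table held 9 libraries in 3 groups of 3, and its unit was TPM, a library-scaled transcript abundance that corrects for transcript length, so levels can be compared between genes. B2 cells, conventional B cells, came from spleen and carried the strain label VH12B1-8/Vk4. B1 cells, which live mainly in body cavities, were peritoneal and had the strain label B1-8VH12/Vk4. B2B1 cells came from the same site under that same label, about 30 days after their B cell receptor (BCR) had been switched by induction. All 3 groups shared a C57BL/6 backcrossed background and the Vk4 part of the label. No label gives the age of the animals, how the cells were sorted, or whether libraries represent different mice. Xist, a marker of female cells, was at 280.8 and 278.8 TPM in B2 libraries 1 and 3 and at 0.4116 TPM in library 2. It also differed within B2B1, so neither of these groups came from a single animal. Whether the libraries are otherwise separate mice is unknown. The p-values therefore cover the spread among these 9 libraries, part of which may be technical.

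Immediate early genes are transcribed within minutes of a stimulus from promoters that are kept ready, with no need for new protein. Fos and Jun proteins dimerise through leucine zippers to form AP-1, a factor that links MAP kinase signals, among them those of the BCR, to transcription. Jun proteins can pair with each other, whereas Fos proteins need a partner. Many of these mRNAs are also decayed within minutes, and the group includes genes whose products end such responses: Zfp36 (tristetraprolin) binds AU-rich mRNAs and recruits deadenylases, Btg2 is an antiproliferative protein that stimulates deadenylation, and Atf3 is a stress-induced bZIP factor that often represses its targets. Many of these genes are also known to respond to tissue handling.

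The libraries carried high levels of B cell markers, with Cd79a between 2390 and 3100 TPM. B-1 cell markers summed to 39.7 to 49.1 TPM in B2, 3920 to 4480 in B2B1 and 4060 to 5060 in B1. The largest part of the peritoneal sums was S100a6, at 1780 to 2050 TPM in B2B1 and 2830 to 3830 TPM in B1. Cd5 of this list did not follow the sum in B2B1. It was at 0.609 to 1.09 TPM in B2, 1.22 to 1.85 TPM in B2B1 and 13.4 to 22.9 TPM in B1. Markers of macrophages, which also express immediate early genes, summed over 10 genes to 1.51 to 3.11 TPM in B2, 66.8 to 261 TPM in B2B1 and 21.4 to 48.1 TPM in B1. The highest macrophage sum was that of B2B1 library 1. Most of the peritoneal macrophage sums came from Emr1 (39.9 to 52 TPM in B2B1, 13.6 to 20.9 in B1) and Lyz2 (22.3 to 181 and 1.22 to 30.9 TPM). Csf1r, Cd14, Fcgr1, Mertk, Timd4 and Marco were at or below 2.13 TPM in every library. Markers of mesothelium and stroma stayed at 0.186 to 0.497 TPM, with Msln, Upk3b and Krt19 listed at 0 in every library. Other lists moved with the groups as well: follicular B cell markers summed to 3700 to 4140 TPM in B2 and 556 to 787 TPM in the peritoneal libraries, dendritic cell markers to 17.8 to 20 and 1.7 to 2.07 TPM, and NK cell markers to 12.4 to 16.9 and 0.781 to 1.81 TPM. T cell markers summed to 13.1 to 15.9 TPM in B2, 20.2 to 26 TPM in B2B1 and 25.9 to 32.2 TPM in B1. Most of the peritoneal follicular sum was Cxcr5, at 417 to 632 TPM in B2B1 and 457 to 504 TPM in B1. In B2 Cxcr5 was at a like level, 493 to 508 TPM. Fcer2a of the same list was at 1110 to 1280 TPM in B2 and at or below 11.1 TPM in the peritoneal libraries. The dendritic, NK and T cell sums also rested on few genes. In B2 most came from Flt3 (14.1 to 16.2 TPM) for dendritic cells and Prf1 (11.3 to 16.3 TPM) for NK cells. Siglech and Ncr1 of those lists were at 0 in B2. The T cell sums came mostly from Lck and Cd3d, and in B1 also Cd3g, with Cd3e at or below 0.0837 TPM in every library. The part of these cell types in the members' differences was not tested. Depth cannot be read from TPM and is unknown.

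Against B2, the members did not move as a block in either peritoneal group. In B1, 2 of the 9 were called higher (Jund and Atf3) and 3 lower (Fos, Btg2 and Zfp36) at a limma adjusted p under 0.05, where 18.0% of the 11099 genes tested were called higher and 33.9% lower. In B2B1, 6 were called higher (Fosb, Jun, Junb, Jund, Atf3 and Ier2) and 2 lower (Btg2 and Zfp36), where 21.0% of all genes were called higher and 42.0% lower. Between B2B1 and B1, 0 members were called higher and 1, Btg2, lower, where 6.93% of genes were called higher and 12.1% lower. At an unadjusted p under 0.05, which 11.8% of all genes passed as higher, Fosb, Junb and Ier2 passed as higher too. The median log2 fold change of the members was 0.08 in B1 against B2 and 0.78 in B2B1 against B2, beside −0.135 and −0.193 for all genes tested. Rescaling the libraries by median-of-ratios factors moved those medians of all genes to 0.011 and 0.018. With that scaling, 2843 genes were called higher and 2464 lower in B1 than in B2, in place of 2003 and 3762. For B2B1 against B2 the counts were 3494 and 3031, in place of 2332 and 4663, and for B2B1 against B1 they were 1087 and 894, in place of 769 and 1339. Junb and Ier2 were then also called higher in B2B1 than in B1 (0.76 and 0.41 on the log2 scale, adjusted p = 0.0458 and 0.0401). Organ and strain label differ together with cell type in both comparisons with B2, and these cannot be told apart. Both comparisons with B2 share their 3 B2 libraries. A lower level in these bulk samples can come from fewer expressing cells or from less RNA per cell, which cannot be told apart.

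**Figure D1:**
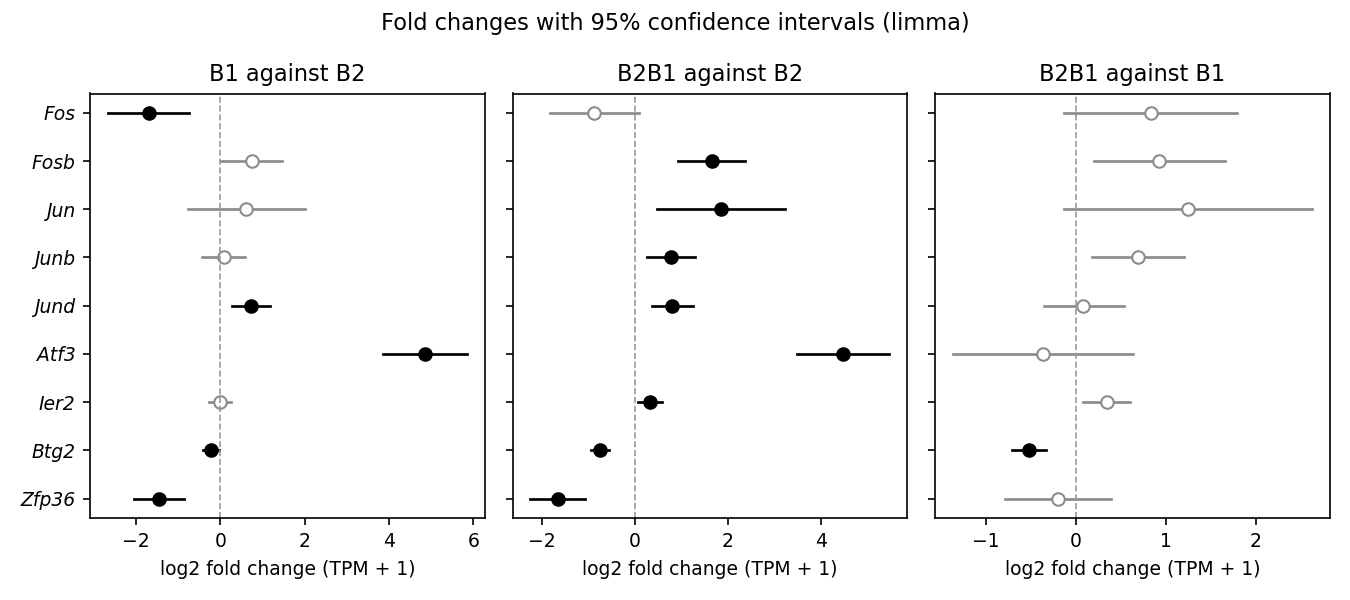
Log2 fold change on the scale log2(TPM + 1) of each member (rows) in the 3 comparisons (panels). Points are limma estimates, bars their 95% confidence intervals, filled black where the adjusted p was under 0.05 and open grey otherwise; Atf3 lies farthest from 0 in both comparisons with B2, at 4.86 and 4.48.

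The members lie on 5 chromosomes of the mouse build GRCm38 (GENCODE M21 annotation). Fos is on chromosome 12 from 85473890 to 85477273 and Jun, a gene of 1 exon, on chromosome 4 from 95049034 to 95052222. Fosb, from 19302696 to 19310051, and Zfp36, from 28376784 to 28380253, are on chromosome 7. Jund (70698949 to 70700616), Ier2 (84661331 to 84662852) and Junb (84974484 to 84978718) are on chromosome 8. Btg2 (134075170 to 134079120) and Atf3 (191170296 to 191218039) are on chromosome 1. Junb shares 351 bases with Prdx2, a peroxiredoxin gene on the opposite strand, and Jun, Jund and Zfp36 each overlap an annotated antisense transcript. Prdx2 was in the deposited table and the antisense transcripts were not. The labels do not say whether the reads kept their strand, so reads in the overlap of Junb and Prdx2 may have been split between both genes. Whether the antisense transcripts were among those quantified is unknown.

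Of the Fos family, Fos was lower in B1 than in B2 and Fosb was higher in B2B1 than in B2. Fos, the prototype partner of Jun proteins, was at 19.9, 35.4 and 29.6 TPM in B2 libraries 1 to 3, at 7.7, 15.3 and 25.7 TPM in B2B1 and at 4.48, 10.9 and 9.4 TPM in B1. All B1 values lay below all B2 values, and the B2B1 values spanned from below the B2 range to within it. Fos was lower in B1 than in B2 by a log2 fold change of −1.70 ± 0.424 (SE, adjusted p = 0.00862). In B2B1 the log2 fold change against B2 was −0.87 ± 0.424 and did not pass (adjusted p = 0.1); without B2B1 library 3 it was −1.26 and passed (adjusted p = 0.0253). Fosb, a paralogue that also has a truncated splice form in mouse, was at 1.8, 5.34 and 2.79 TPM in B2, at 8.22, 13.2 and 15.2 TPM in B2B1 and at 4.86, 5.08 and 7.73 TPM in B1. Its B2B1 values lay above those of both other groups, and the B1 and B2 values overlapped. Fosb was higher in B2B1 than in B2 (log2 fold change 1.66 ± 0.319, adjusted p = 0.00164), whereas its B1 difference from B2 of 0.74 ± 0.319 missed the threshold (adjusted p = 0.0816) and passed without B2 library 2 (log2 fold change 1.06, adjusted p = 0.017). The ratio of Fos to Fosb within a library, which no scaling changes, was 6.62 to 11.1 in B2, 0.936 to 1.7 in B2B1 and 0.923 to 2.14 in B1. The B2 ratios did not overlap those of either peritoneal group, and no test of the ratio was run.

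Fos and Fosb are classical targets of cAMP response elements (CRE) and serum response elements in their promoters, so the 250 bases before each member's RefSeq start (build GRCm38.p6) were searched on both strands. The search used the CRE TGACGTCA, the short CRE TGACG, the AP-1 site TGANTCA and the CArG box of the serum response factor; a full CRE also counts as a short CRE. RefSeq promoters were found for 8 of the 9 members. The short CRE was in 5 of these 8 windows, against 17.8% of 32851 promoter windows, and the full CRE in 1, against 1.55%. The short CRE of Atf3 began 7 bases before the start, in bases that lie in an annotated exon. The Jund window ended at 70697738, well upstream of the GENCODE start of Jund at 70698949. The AP-1 site was in 0 of 8 (6.75% of all), and the CArG box in 1, Zfp36 (1.47% of all), whose whole window lies in annotated exon sequence. Elements farther upstream than 250 bases, such as a more distant serum response element, could not be found by this search. Its exact patterns also miss variants such as TGACATCA, which is in the Jun window. An absent match therefore does not show that a member lacks such an element. GC content was 47.6% to 73.2% in the members and had a median of 52.4% over all windows, and its part in these counts was not tested. Windows of Fos and Fosb, which were called in different comparisons and directions, and of Btg2, which held the full CRE, are shown 5′ to 3′, ending at the last base before the start that lies in no annotated exon; capitals mark the CRE or short CRE. The first is chr12:85473640-85473889 on the plus strand, the second chr7:19310052-19310295 on the minus strand and the third chr1:134079156-134079405 on the minus strand.
Fos: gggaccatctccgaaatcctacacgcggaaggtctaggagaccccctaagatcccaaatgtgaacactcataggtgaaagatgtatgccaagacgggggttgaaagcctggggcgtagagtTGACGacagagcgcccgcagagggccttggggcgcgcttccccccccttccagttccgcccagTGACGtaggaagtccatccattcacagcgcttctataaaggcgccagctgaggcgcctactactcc
Fosb: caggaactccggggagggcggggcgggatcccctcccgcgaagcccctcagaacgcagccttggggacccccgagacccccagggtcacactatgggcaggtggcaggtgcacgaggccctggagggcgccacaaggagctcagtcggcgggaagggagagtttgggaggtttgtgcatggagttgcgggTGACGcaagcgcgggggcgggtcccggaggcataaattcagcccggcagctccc
Btg2: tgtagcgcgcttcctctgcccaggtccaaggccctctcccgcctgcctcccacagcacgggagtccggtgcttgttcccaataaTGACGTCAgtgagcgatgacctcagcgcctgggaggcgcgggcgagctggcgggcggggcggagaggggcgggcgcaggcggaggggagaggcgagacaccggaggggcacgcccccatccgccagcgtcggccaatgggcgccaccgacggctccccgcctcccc
The Fos window held a short CRE starting 129 and another starting 66 bases before the start, and the Fosb window held 1 starting 60 bases before it. In Btg2 the full CRE began 166 bases before the start. These are matches of letters only, and binding was not measured.

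Of the 3 Jun genes, Jund was higher than B2 in both peritoneal groups, and Junb and Jun were called higher in B2B1. Jund, the most constitutive Jun protein, was at 84.6, 73.7 and 64.6 TPM in B2, at 97.2, 145 and 157 TPM in B2B1 and at 101, 147 and 126 TPM in B1. Both peritoneal groups lay wholly above B2 and overlapped each other. Jund was higher by 0.73 ± 0.197 in B1 (adjusted p = 0.0126) and by 0.81 ± 0.197 in B2B1 (adjusted p = 0.00594) on the log2 scale, and B2B1 and B1 differed by 0.08, with a 95% interval from −0.36 to 0.53. Junb was at 78.1, 88 and 70.7 TPM in B2, at 98, 132 and 193 TPM in B2B1 and at 74.6, 103 and 75.8 TPM in B1. B2B1 lay above B2, and B1 overlapped both. Junb, which can oppose Jun in proliferation, was higher in B2B1 than in B2 by 0.78 ± 0.225 (adjusted p = 0.0141), and its B1 difference from B2 was 0.08, with an interval from −0.43 to 0.59. Its neighbour Prdx2 was at 103 to 116 TPM in B2, 219 to 255 TPM in B2B1 and 175 to 191 TPM in B1, and the part of reads shared with it was not tested.

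Jun, the archetype of the family and a target of JNK, was the most variable member. It was at 12.1, 14.8 and 10.5 TPM in B2, at 23.1, 32.1 and 142 TPM in B2B1 and at 12.9, 35.5 and 16.2 TPM in B1. B2B1 lay above B2, with library 3 far above the other B2B1 libraries, and B1 overlapped both groups. The log2 fold change of B2B1 against B2 was 1.86 ± 0.609 (adjusted p = 0.0245). Without B2B1 library 3 it was 1.08 (adjusted p = 0.0362), and the call was lost without B2 library 1 or B2 library 3 (log2 fold changes 1.84 and 1.75, adjusted p = 0.0612 and 0.0693). Against B1 the B2B1 difference was 1.24, with an interval from −0.14 to 2.62.

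**Figure D2:**
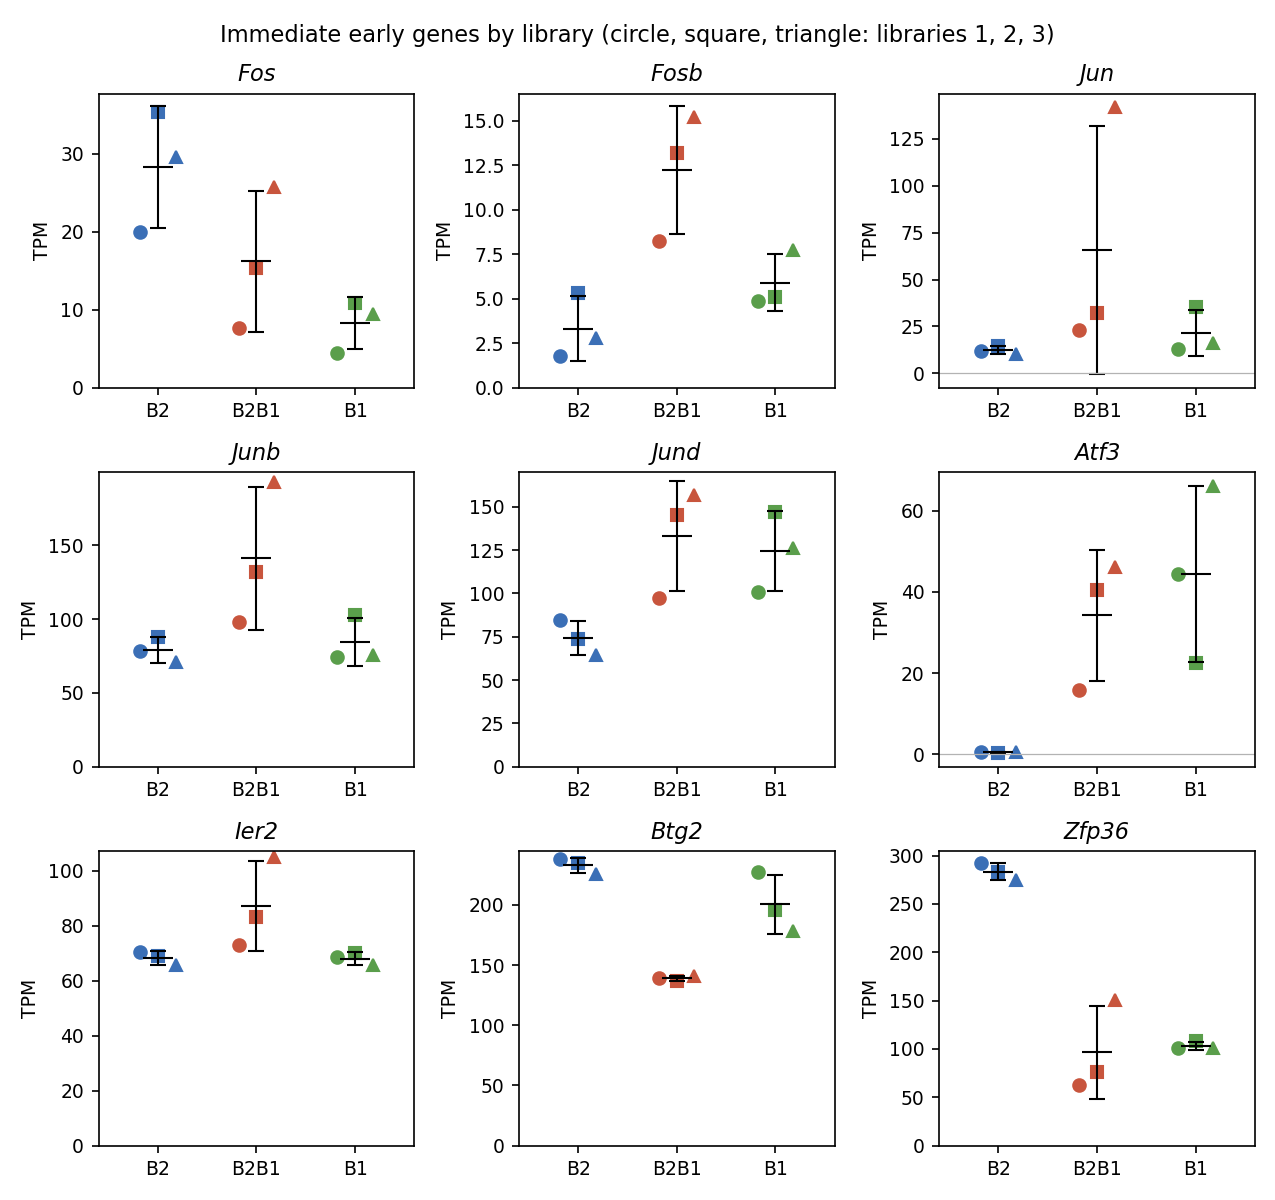
TPM of each member in every library, by group (circle, square and triangle for libraries 1, 2 and 3; black bars for mean and SD, n = 3). Zfp36 stands at 275 to 292 TPM in B2 and at or below 151 TPM elsewhere, and the triangle of B2B1 is the highest B2B1 library in all 9 panels.

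Summed over Fos, Fosb, Jun, Junb and Jund, the 5 AP-1 subunit transcripts came to 178.2 to 217.2 TPM in B2, 234.2 to 532.7 TPM in B2B1 and 197.6 to 301.3 TPM in B1. Jun family transcripts made up most of the sum in each library. The share of Fos and Fosb together was 11.1% to 18.8% in B2, 6.8% to 8.46% in B2B1 and 4.73% to 7.29% in B1. For these genes B2 lay above both peritoneal groups, which overlapped. Fosl2, another Fos family gene, is not in this sum and was at 0.105 to 0.736 TPM in B2 and 10.5 to 12.8 TPM in B1. The separation of B2 from B1 is therefore not shown for the whole Fos family. The share of Jund was 33.9% to 43% in B2, 29.5% to 43% in B2B1 and 48.9% to 53.6% in B1, which lay above the other groups. Its means were 37.7% ± 4.73 in B2, 38% ± 7.37 in B2B1 and 51.1% ± 2.34 in B1 (SD, n = 3). Jun alone was 5.91% to 6.83% in B2, 6.51% to 11.8% in B1 and 9.51%, 9.88% and 26.6% in B2B1. These shares do not depend on how a library is scaled, and they were not tested.

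**Figure D3:**
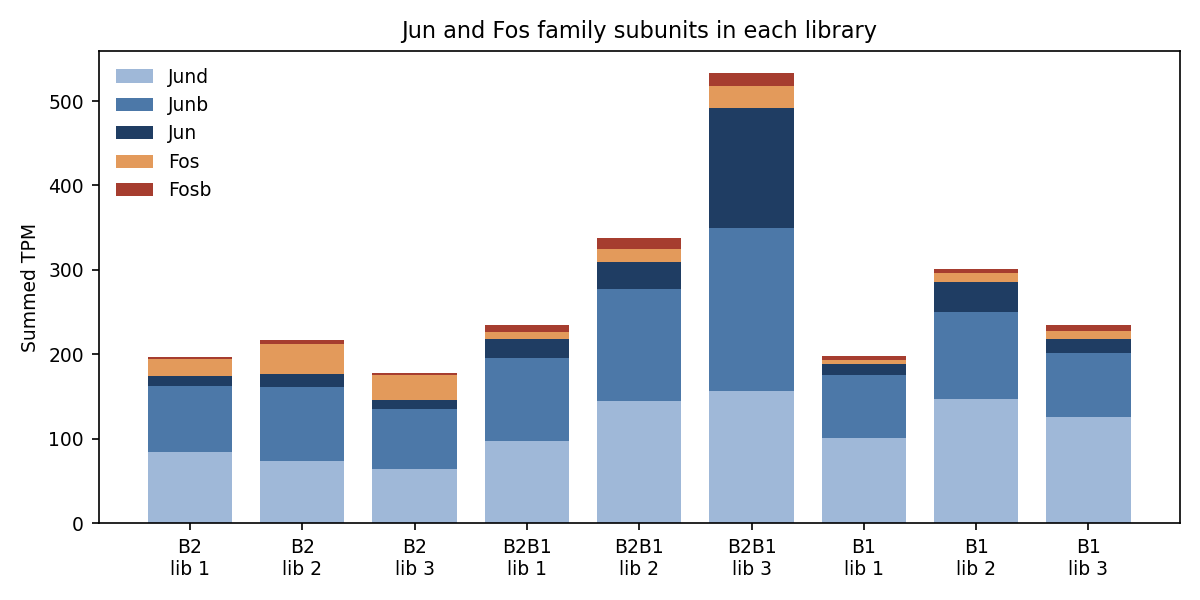
Summed TPM of the 5 Jun and Fos family subunits in each of the 9 libraries, stacked by subunit from an axis that starts at 0. B2B1 library 3 has the highest sum, 532.7 TPM, of which Jun is 26.6%; Fos is a larger part of the B2 bars than of the others.

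Atf3 had the largest fold change of the members in both comparisons with B2. It was at 0.537, 0.232 and 0.562 TPM in B2, at 15.9, 40.6 and 46.1 TPM in B2B1 and at 44.5, 22.6 and 66.1 TPM in B1. B2 lay below 1 TPM in each library, and the peritoneal groups overlapped. The log2 fold change was 4.86 ± 0.44 in B1 (adjusted p = 2.66e-05) and 4.48 ± 0.44 in B2B1 (adjusted p = 2.99e-05), with a B2B1 difference from B1 of −0.37 (interval −1.37 to 0.63). With a pseudocount of 1 these values understate the change of a gene this low in B2: with a pseudocount of 0.1 they were 6.29 and 5.91. Macrophage markers also summed higher in the peritoneal libraries, at 261, 66.8 and 95.2 TPM in B2B1 libraries 1 to 3 and at 21.4, 48.1 and 46.6 TPM in B1. Most of these sums came from Emr1 and Lyz2. The part of macrophage RNA in Atf3 was not tested.

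Zfp36 and Btg2, the members that act in mRNA decay, were the most abundant members in B2 and were lower in B2B1. Zfp36 was at 292, 283 and 275 TPM in B2, at 62.5, 75.8 and 151 TPM in B2B1 and at 101, 108 and 101 TPM in B1. B2 lay far above both peritoneal groups, while B2B1 spanned the narrow B1 range. Its log2 fold change was −1.45 ± 0.26 in B1 (adjusted p = 0.00152) and −1.65 ± 0.26 in B2B1 (adjusted p = 0.000517). The B2B1 difference from B1, −0.20 ± 0.26 (adjusted p = 0.627), became −0.57 and passed without B2B1 library 3 (adjusted p = 0.00518).

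Btg2 was at 238, 235 and 226 TPM in B2, at 139, 137 and 141 TPM in B2B1 and at 227, 196 and 178 TPM in B1. The B2B1 libraries lay close together and below both other groups, whereas the highest B1 value reached into the B2 range. Btg2 was the only member called between B2B1 and B1, at −0.52 ± 0.0816 (adjusted p = 0.00327), and against B2 it was lower by −0.75 ± 0.0816 in B2B1 (adjusted p = 5.78e-05). Its B1 difference from B2, −0.23 ± 0.0816 (adjusted p = 0.0437), was lost under 14 of 20 alternatives, among them median-of-ratios scaling (−0.07) and 8 of the 9 fits that left out 1 library; without B1 library 1 it was −0.32 (adjusted p = 0.00353). The ratio of Zfp36 to Btg2 was 1.2 to 1.23 in B2, 0.45 to 1.07 in B2B1 and 0.445 to 0.564 in B1.

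Ier2, a small nuclear protein of the early response, was at 70.6, 68.8 and 65.6 TPM in B2, at 72.9, 83.3 and 105 TPM in B2B1 and at 68.5, 70 and 65.6 TPM in B1. B1 and B2 covered the same range, and B2B1 lay just above both. Its B2B1 difference from B2 of 0.33 ± 0.116 (adjusted p = 0.0315) was lost under 7 of 20 alternatives, including the fit without B2B1 library 3 (0.19, adjusted p = 0.0658). For B1 against B2 the difference was −0.01, with an interval from −0.27 to 0.26.

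B2B1 library 3 was the highest B2B1 library for all 9 members, and library 1 the lowest for 8 of them. The margin of library 3 was small for some members, such as Btg2 (141 against 139 TPM) and Jund (157 against 145 TPM). Over all genes tested, library 3 was the highest of the B2B1 libraries for 31.4% and library 1 the lowest for 32.6%. Of the other early response genes 17 of 27 were highest in library 3, as were 9 of 12 heat shock genes. The same library was alone among the B2B1 libraries in carrying Xist, a marker of female cells, at 180.4 TPM against 0.461 and 0.355 TPM, while the Y-linked Ddx3y was at 56.9 and 61.7 TPM in libraries 1 and 2. Xist was high in 2 of the 3 B2 libraries and in all 3 B1 libraries, so sex was unbalanced between the groups, B2B1 and B1 included. The part of sex in the high library and in the differences between groups was not tested, apart from a fit with a term for high Xist. Among B1 libraries, library 2 was the highest for 6 members, beside 41.9% of all genes. It was also highest for 15 of 27 other early response genes but for only 3 of 12 heat shock genes. B1 library 3 was highest for 9 of 12 heat shock genes and for 2 members.

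The residual SD of the log2 values was 0.906 for Jun, 0.65 for Atf3 and 0.627 for Fos, above 98.6%, 97.1% and 96.8% of the genes tested, whose median was 0.136. Ier2 (0.159) lay above that median and Btg2 (0.104) below it. As a description over the deviations of 9 libraries from their group means, which share library effects, Pearson's r was 0.97 for Ier2 and Zfp36, 0.96 for Jun and Junb, 0.91 for Junb and Ier2 and 0.91 for Jun and Zfp36. Btg2 did not follow, with r from −0.45 to 0.2 against the other 8. Apart from Btg2, r for Atf3 was only 0.16 (Jun) to 0.48 (Zfp36). For Fosb it was 0.74 with Fos and 0.32 (Jund) to 0.49 (Junb) with the rest.

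The order of levels by mean TPM changed between groups. In B2 it was Zfp36 (283), Btg2 (233), Junb (78.9), Jund (74.3), Ier2 (68.3), Fos (28.3), Jun (12.5), Fosb (3.31) and Atf3 (0.444); there, Junb, Jund and Ier2 overlapped their neighbours in the order and the others did not. B1 had the order Btg2, Jund (125), Zfp36 (103), Junb (84.4), Ier2 (68.1), Atf3 (44.4), Jun (21.5), Fos (8.25) and Fosb (5.89). In B1 the neighbours Btg2 and Jund, Junb and Ier2, and Jun and Fos did not overlap, while the rest did. In B2B1, from Junb (141), Btg2 (139) and Jund (133) through Zfp36 (96.4), Ier2 (87.3), Jun (65.7) and Atf3 (34.2) to Fos (16.2) and Fosb (12.2), each gene overlapped the next.

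Related genes, taken from lists set with earlier results of these data known, showed where AP-1 partners and regulators stood. Beside all counts against B2 stand the shares of all genes, 18.0% higher and 33.9% lower in B1 and 21.0% and 42.0% in B2B1, which several of them lie near. Of 14 tested AP-1 and bZIP partners, 2 were higher and 4 lower in B1 than in B2, and 5 were higher and 4 lower in B2B1. Under median-of-ratios scaling these were 5 higher and 2 lower in B1, and 6 and 3 in B2B1, so the balance in B1 depends on the scaling. Fosl2 (Fra-2) was at 0.105 to 0.736 TPM in B2, 2.69 to 3.24 TPM in B2B1 and 10.5 to 12.8 TPM in B1, with B1 above B2 by 3.30 ± 0.184 (adjusted p = 1.37e-06) and B2B1 below B1 by −1.67 ± 0.184 (adjusted p = 0.000588). Batf, an AP-1 factor of lymphocytes that pairs with Jun proteins, was at 27 to 32.2 TPM in B2, 65.1 to 68.9 TPM in B2B1 and 46.5 to 59.5 TPM in B1, higher than B2 by 1.19 ± 0.105 and 0.90 ± 0.105 (adjusted p = 1.59e-05 and 0.000125). Bach2, a bZIP repressor that restrains plasma cell differentiation, was at 83.5 to 87.2 TPM in B2, 6.56 to 16.2 TPM in B2B1 and 17 to 24.5 TPM in B1, so the groups did not overlap.

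MAP kinase phosphatases, which shut off the kinases upstream of AP-1, were called for all 8 members against B2, with 6 lower and 2 higher in each peritoneal group and the same counts under median-of-ratios scaling. Their median log2 fold change was −2.12 in B1 and −2.36 in B2B1. Dusp2 was at 136 to 156 TPM in B2, 3.3 to 8.62 TPM in B2B1 and 6.28 to 8.64 TPM in B1. Dusp6, a cytoplasmic phosphatase, was at 40.7 to 52.9 TPM in B2 and at 0.852 to 1.34 TPM in the peritoneal libraries. The 2 higher members were Dusp10, which acts on JNK and p38 (8.51 to 10.1 TPM in B2, 47.8 to 57.1 in B2B1, 32.7 to 56.7 in B1), and Dusp5, a nuclear phosphatase (1.33 to 3.68, 13.9 to 15.6 and 6.9 to 12.7 TPM). Of 17 MAP kinase pathway kinases, 5 were higher and 5 lower in B1 and 4 and 5 in B2B1, and under median-of-ratios scaling 7 and 2 in B1 and 5 and 3 in B2B1. Map2k1 (MEK1) was at 195 to 202 TPM in B2 and 89.6 to 111 TPM in B2B1. Of 9 SRF, TCF and CREB factors, which bind immediate early promoters, 0 were higher and 4 lower in each, near the share of all genes called lower, and under median-of-ratios scaling 2 were lower in B1 and 3 in B2B1. Among them was Creb1 at 47.9 TPM on average in B2, 28.2 in B2B1 and 34.6 in B1.

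Other early response genes were called higher for 5 and lower for 15 of 27 in B1, and higher for 11 and lower for 13 in B2B1. Under median-of-ratios scaling the counts were 7 and 14 in B1 and 11 and 11 in B2B1. Between B2B1 and B1, 7 were higher and 2 lower, where 6.93% and 12.1% of all genes were. Egr3, a zinc finger factor induced by antigen receptors, was at 8.76 to 9.64 TPM in B2, 27.1 to 35.6 TPM in B2B1 and 6.11 to 10.8 TPM in B1, above B1 by 1.72 ± 0.18 (adjusted p = 0.000488). Nr4a1, an orphan receptor that marks BCR signalling, was at 16.5 to 21.3, 28.7 to 34.8 and 10.6 to 16.3 TPM, above B1 by 1.27 ± 0.16 (adjusted p = 0.00108). Klf10, a TGF-beta-inducible repressor, was at 3.55 to 4.73, 25.1 to 46.8 and 20.6 to 26.8 TPM. The lowest called log2 fold changes against B2 in this list were those of Dusp2, −4.17 in B1 and −4.37 in B2B1. Gadd45g came next, at −3.13 and −3.39, with its calls lost under several alternatives. Relatives of Zfp36 and Btg2 and other decay factors had 0 of 12 higher and 5 lower in B1, and 1 higher and 7 lower in B2B1. Median-of-ratios scaling gave 2 and 4 in B1 and 1 and 4 in B2B1. Among them Btg1 was at 388 to 448 TPM in B2, 179 to 193 TPM in B2B1 and 201 to 244 TPM in B1. Zfp36l2 was at 235 to 457, 28.8 to 58.1 and 69.9 to 338 TPM, lower in B2B1 than in B2 by −2.91 ± 0.527 (adjusted p = 0.00116), with the call against B1 lost under several alternatives. Heat shock genes had 1 of 12 higher and 1 lower in B1, and 2 higher and 1 lower in B2B1, where median-of-ratios scaling gave 3 and 1.

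**Figure D4:**
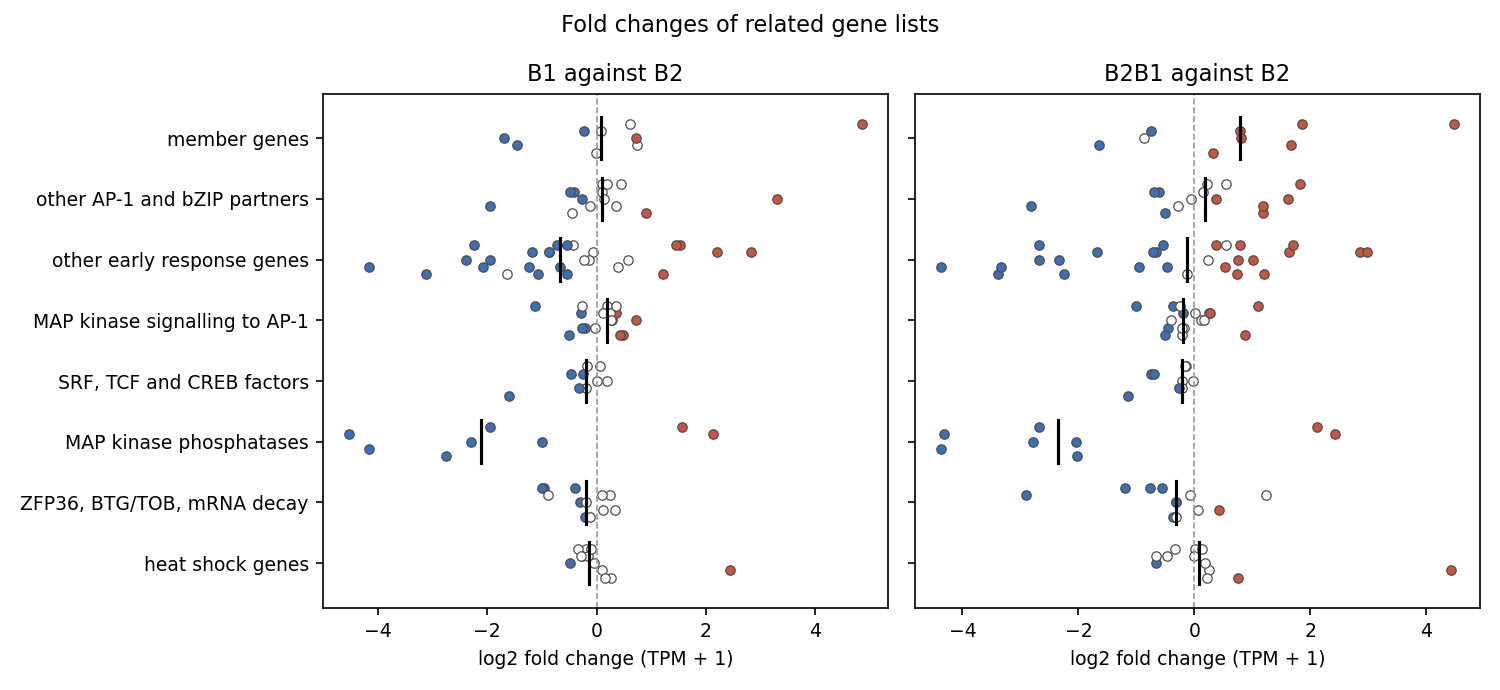
Log2 fold change on the scale log2(TPM + 1) of the tested genes of each list, in B1 against B2 (left) and B2B1 against B2 (right). Filled points were called (red higher, blue lower), open points were not, and black bars mark list medians; the phosphatase median lies at −2.12 and −2.36, and every phosphatase point is filled.

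By Pearson's r of log2(TPM + 1) over the 9 libraries, a description that mostly reflects the 3 groups, the genes most like each member among 8381 differed between members; these had a mean of at least 5 TPM and left out the members, gene models named by number, and small RNA, immunoglobulin and mitochondrial genes. Btg2 was followed most closely by Rbmx (r = 0.998) and Sema7a (0.994), and Atf3 by Cyp11a1 (0.992) and Tspan14 (0.988). Zfp36 was closest to Pgs1 (0.985) and Cep164 (0.983), Jund to Ssbp4 (0.967) and Klf2 (0.959), and Fosb to Uqcrfs1 (0.966) and Cyp51 (0.931). Ier2 was closest to Csf1 (0.963) and Slc35b4 (0.952), and Junb to Slc35b4 (0.957) and Taf6l (0.945). Jun was closest to Slc41a1 (0.937) and Psma5 (0.914), and Fos to Mta1 (0.931) and Cyb5rl (0.921).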

How the data were processed

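The authors deposited one gene table in TPM for 9 mouse B cell libraries. The labels' protocols name a micro column kit for RNA and the TruSeq RNA Sample Kit v2 for poly(A) libraries. The submitters' processing notes list CASAVA 1.8.2, kallisto and the build mm10, with no transcript set or rule for summing to genes. Column sums were 894515 to 943043 TPM. TPM keep no depth, so no count model or counting interval was used. Of 36 pairs of libraries, 0 were identical.

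A limma model (limma 3.58.1 in R 4.3.3, trend option, no covariate) was fitted to log2(TPM + 1) of all 9 libraries over 11099 genes whose mean reached 1 TPM. Two-sided p-values were adjusted by Benjamini-Hochberg over all genes tested, with calls under 0.05, and the fit was tested on simulated data. Fold changes on this scale understate those of low genes. The members and lists were chosen with earlier results of these data known. List genes given by name are among the 2 highest and 2 lowest called fold changes of a list at a mean of at least 5 TPM; genes most like a member are the 2 with the highest r. Protein sequences were not analysed here. Alternatives were pseudocounts of 0.1 and 0.5, no filter or one at 5 TPM, median-of-ratios and quantile scaling, library weights, a replicate block, fits of the compared groups alone, omission of libraries and, added after the data were seen, a term for high Xist. Figures were drawn with matplotlib 3.10.9 in Python 3.11.15.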

Additional observations from a re-analysis of the deposited data

How the results depend on the processing

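Alternatives moved counts more than the directions of called members. Median-of-ratios scaling lowered the genes called lower against B2 to 2464 in B1 and 3031 in B2B1. For B2B1 against B1, genes called higher and lower numbered 448 and 681 with only those groups fitted and 342 and 500 with the Xist term, which was chosen after seeing the data. Members called higher there were 2 under median-of-ratios scaling, library weights and the replicate block. Without B2B1 library 1 and B1 library 2 they were 4. B2B1 library 1 was the lowest B2B1 library for 8 members, and B1 library 2 the highest B1 library for 6. Leaving out both therefore raises most members' differences by construction, and no conclusion is drawn from that count. Shares of all genes under the weights, the block and this omission are not given here, so these counts have no background beside them. Leaving out single libraries gave 0 to 2 members higher, 1 to 2 lower and 789 to 1426 genes lower in that comparison. The genes called higher in those fits are not given here, so the members called higher have no background beside them. The cause of these changes was not tested.

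Signs turned only for differences that were not called in the full data. Ier2 in B1 against B2 was 0.15 under median-of-ratios, 0.13 under quantile normalization and −0.03 to 0.02 without single libraries. Junb was −0.06 to 0.17 without single libraries and −0.06 without B2B1 library 1 and B1 library 2. For B2B1 against B1, leaving out single libraries gave −0.06 to 0.29 for Jund, −0.78 to 0.09 for Atf3 and −0.57 to 0.05 for Zfp36. Zfp36 was also 0.08 without both libraries and 0.17 with the Xist term, where Atf3 was 0.02.

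Replicate numbers did not pair the libraries: same-numbered deviations correlated at −0.058 to 0.123 over 9 pairs, and 3 of 9 libraries correlated best with their own number. With the block, members higher and lower were 3 and 3 in B1 against B2, 5 and 3 in B2B1 against B2. In B2B1 against B1 they were 2 and 1. The counts of all genes under the block are not given here, so these member counts cannot be set against a background. Unknown depth limits what can be said of genes near 0 TPM.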

Other observations

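Among all 9070 tested genes with a mean of at least 5 TPM, small RNA and numbered gene models included, ranked by how far B2B1 library 3 stood above the next B2B1 library, Jun was at place 8, with a gap of 2.11 on the log2 scale. These genes were chosen after their values were seen, and the rank is a description of 1 library. Apart from Xist and small RNA genes, the genes ahead of Jun were Gadd45g, a stress-inducible gene (0.608, 1.18 and 22.4 TPM in B2B1 libraries 1 to 3), Socs3, a feedback inhibitor of cytokine signalling (1.31, 3.58 and 41.5 TPM), and Csf1, the macrophage growth factor (7.53, 7.92 and 44.2 TPM). Socs3 and Gadd45g were at 31.3 to 41.3 and 36.6 to 54 TPM in B2, whereas Csf1 was at 2.13 to 2.42 TPM there. Zfp36 came at place 33 with a gap of 0.98.

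Hspb1, a small heat shock protein gene, was listed at 0, 0 and 0.255 TPM in B2, at 28.8, 13.8 and 27.3 TPM in B2B1 and at 6.47, 0.546 and 16.4 TPM in B1. Its log2 fold change was 4.43 ± 0.728 in B2B1 against B2 (limma adjusted p = 0.000661). Hspa1b, the inducible form of Hsp70, spanned 4.82 to 18.5 TPM in B2 and 0.643 to 15.3 TPM in B2B1, so the groups overlapped.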
